A study of Mus musculus with 24 samples.

Results

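The 8 genes described here encode the receptor complex for glial cell line-derived neurotrophic factor (GDNF) and the transcription factors that GDNF is known to induce in spermatogonia. They were taken by gene name from both deposited expression tables, which list 23333 genes between them. All 8 are present among the 23177 genes of the Zbtb16 table and the 21688 of its Sox3 counterpart. The rule uses gene names and no measured value, although earlier results of these data were known when it was set. The members are the co-receptors Gfra1, Gfra2 and Gfra3, the receptor tyrosine kinase Ret, and the transcription factor genes Etv5, Bcl6b, Lhx1 and Pou3f1.

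GDNF is secreted by somatic cells of the testis. It binds GFRA1, a co-receptor tethered to the cell surface by a lipid anchor, and the pair engages RET, which signals through the RAS-MAPK, PI3K-AKT and SRC-family routes. In cultured stem spermatogonia this signal maintains self-renewal and raises transcription of Etv5, Bcl6b, Lhx1 and Pou3f1, and loss of Gdnf, Gfra1 or Ret depletes stem spermatogonia in mice. GFRA2 and GFRA3 are the preferred co-receptors for the related ligands neurturin and artemin.

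RNA was sequenced from spermatogonia of mice at postnatal day 7, in 24 libraries that form 8 groups of 3. Each isolation pooled the testes of 3 mice, and immunomagnetic cell sorting with antibodies against THY1 or KIT gave THY1+ undifferentiated spermatogonia (THY1+ uSPG) and KIT+ differentiating spermatogonia (KIT+ dSPG). The Zbtb16 table holds wild-type (WT) mice and Zbtb16 null mice, homozygous for the luxoid (lu) allele, on C57BL/6J. The methods also mention heterozygous littermates as controls of that line, while the labels give WT. The Sox3 table holds WT mice and Sox3 conditional knockout (cKO) mice, in which floxed Sox3 is deleted by a Cre recombinase driven by the germ cell promoter Ddx4. All groups were sorted in the same way, and neither sort removes somatic cells that carry the same surface protein.

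Values are in FPKM, fragment counts divided by transcript length and by library size, so levels of different genes can be set side by side. Depth was estimated from the steps between low FPKM values. It came to 25.9 to 35.2 M reads per library in the Zbtb16 table and 11.03 to 31.8 M reads in the Sox3 table. The lowest estimated number of reads behind a member was 21.0 for Lhx1 in the Zbtb16 table and 6.13 for Gfra2 in the Sox3 table, so those levels are the least precise. A fold change is given as log2 of (FPKM + 0.1), tested with limma across all genes of a table with a mean of at least 0.1 FPKM, with Benjamini-Hochberg adjustment. A gene is said to have risen or fallen only where the adjusted p was at most 0.05 and the change at least 1.5-fold. All 8 members passed the filter on low values in both tables. Whether the libraries of groups overlap is given as a description. It was not counted over all genes, so it is no test and no result particular to the members.

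The targeted genes and the sorting markers were checked first. Zbtb16 was at 42.0 to 58.7 FPKM in WT THY1+ uSPG and at 15.6 to 18.2 FPKM in null THY1+ uSPG, and Sox3 was at 6.28 to 24.4 FPKM in the WT libraries of its table and at no more than 0.0820 FPKM in the cKO libraries. In the Zbtb16 table Thy1 and Kit followed the labels of every group. In the Sox3 table they did so in the cKO libraries but not in the WT ones. The 3 libraries labelled WT THY1+ had Thy1 at 0.213 to 0.254 FPKM and Kit at 45.6 to 80.1 FPKM, whereas the 3 labelled WT KIT+ had Thy1 at 3.59 to 4.06 FPKM and Kit at 13.0 to 18.8 FPKM. These groups are therefore called "WT labelled THY1+" and "WT labelled KIT+" throughout, no library was moved, and the Zbtb16 table carries the description of the fractions.

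In WT THY1+ uSPG the receptor components were the most abundant members. Gfra1 averaged 33.0 ± 1.75 FPKM (SD, n = 3) and Ret 30.5 ± 4.46 FPKM, followed by Etv5 at 16.2 ± 3.36 FPKM and Bcl6b at 13.9 ± 1.58 FPKM. Pou3f1 averaged 3.40 ± 0.952 FPKM, Lhx1 3.15 ± 0.766 FPKM, Gfra3 1.86 ± 0.0716 FPKM and Gfra2 0.720 ± 0.226 FPKM. In this order the libraries of Gfra1 and Ret overlapped, as did those of Etv5 and Bcl6b and those of Pou3f1 and Lhx1, and every other pair of neighbours was separated. In WT KIT+ dSPG the first 6 places, from Gfra1 at 5.67 ± 2.29 FPKM to Pou3f1 at 2.53 ± 0.533 FPKM, overlapped between neighbours, and Lhx1 (0.515 ± 0.231 FPKM) and Gfra2 (0.358 ± 0.0523 FPKM) lay below them.

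**Figure D1:**
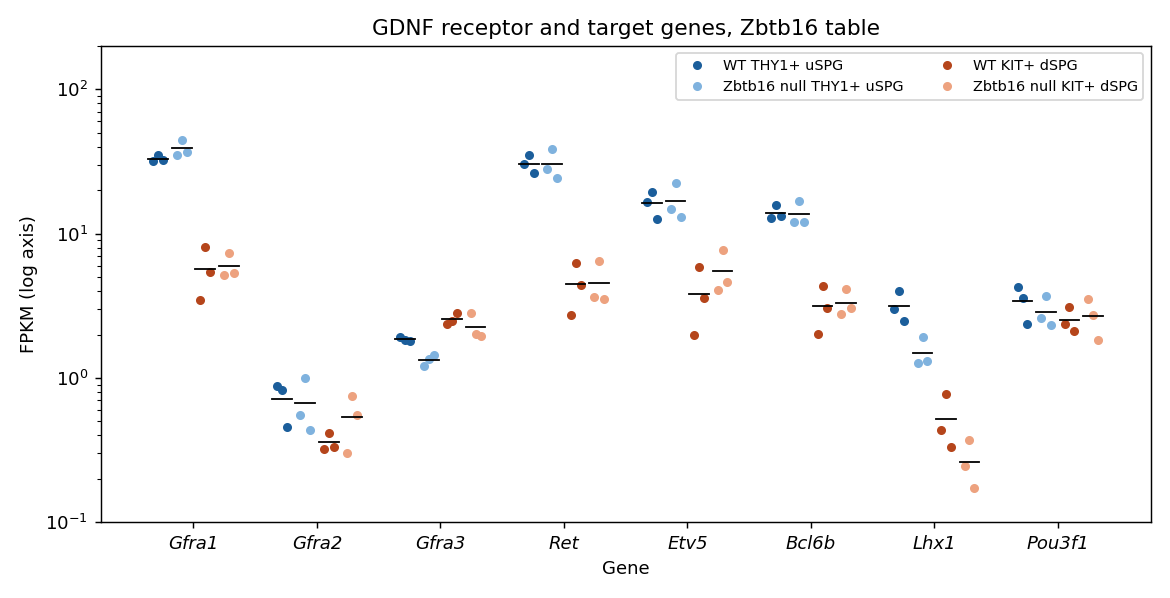
Expression of the 8 members in the Zbtb16 table, with each library as a point, FPKM on a log axis and a black bar at the group mean (n = 3). Gfra1, Ret, Etv5, Bcl6b and Lhx1 sit higher in THY1+ uSPG than in KIT+ dSPG in both genotypes, and the Lhx1 points of the null THY1+ group (1.26 to 1.91 FPKM) lie below those of the WT THY1+ group (2.47 to 3.98 FPKM).

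The first comparison asked where the GDNF receptor and its target genes are expressed along differentiation. Gfra1 and Ret, the subunits that bind and transduce GDNF, and Etv5, Bcl6b and Lhx1 were lower in WT KIT+ dSPG than in WT THY1+ uSPG, whereas the other members did not pass the test. These are 5 of 8 members that fell and none that rose. Of the 22374 genes tested, 14% fell and 7.21% rose. The median log2 change was -2.16 over the 8 members and -0.03 over all genes tested. In bulk RNA of a sorted fraction, fewer cells of a type and less RNA per cell cannot be told apart.

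Gfra1 was at 31.6, 35.0 and 32.4 FPKM in the 3 WT THY1+ uSPG libraries and at 3.497, 8.06 and 5.43 FPKM in the 3 WT KIT+ dSPG libraries. The groups did not overlap, and the ratio of the means was 5.83. Its log2 change was -2.60 (SE 0.24, 95% interval -3.13 to -2.07, adjusted p = 1.7e-05). Ret, the kinase that GFRA1 presents GDNF to, was at 30.2, 35.1 and 26.2 FPKM in THY1+ uSPG and at 2.75, 6.24 and 4.39 FPKM in KIT+ dSPG. It was separated by the widest ratio among the members, 6.84, with a log2 change of -2.81 (SE 0.30, interval -3.47 to -2.15, adjusted p = 4.8e-05). Within each fraction the second library was the highest and, of both genes, the first KIT+ library was the lowest. The 10 most abundant genes held the smallest share of FPKM in the second library of each WT fraction (36.4% in THY1+, 39.5% in KIT+). Their share was largest in the first WT KIT+ library (49.7%). The part of these shares in the library order was not tested.

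Among the transcription factors, Etv5, an ETS family factor needed for stem cell maintenance, was at 16.7, 19.3 and 12.6 FPKM in WT THY1+ uSPG and at 2.0, 5.90 and 3.61 FPKM in WT KIT+ dSPG. Bcl6b, a transcriptional repressor of the zinc finger class, was at 12.8, 15.7 and 13.2 FPKM against 2.01, 4.37 and 3.06 FPKM. Lhx1, a LIM homeodomain factor, was at 3.01, 3.98 and 2.47 FPKM against 0.439, 0.775 and 0.333 FPKM. None of the 3 genes overlapped between fractions. Their log2 changes were -2.16 (SE 0.36, adjusted p = 0.00114) for Etv5, -2.17 (SE 0.25, adjusted p = 8.3e-05) for Bcl6b and -2.44 (SE 0.30, adjusted p = 0.000134) for Lhx1.

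Pou3f1, a POU domain factor that GDNF induces in cultured stem spermatogonia together with Etv5, Bcl6b and Lhx1, differed less. It was at 4.24, 3.59 and 2.36 FPKM in WT THY1+ uSPG and at 2.35, 3.12 and 2.10 FPKM in WT KIT+ dSPG, and the groups overlapped. Its log2 change of -0.39 had an interval from -1.01 to 0.23, which does not reach the falls measured for Etv5, Bcl6b and Lhx1 (adjusted p = 0.33). The alternative co-receptors also did not pass the test. Gfra2 was at 0.873, 0.827 and 0.461 FPKM in THY1+ uSPG and at 0.324, 0.419 and 0.332 FPKM in KIT+ dSPG, with a log2 change of -0.80 (interval -1.54 to -0.07, adjusted p = 0.0967). Without the third WT THY1+ library, the one with the lowest level, Gfra2 passed the test at -1.06 (adjusted p = 0.0491). Gfra3 ran the other way, from 1.79 to 1.93 FPKM in THY1+ uSPG and from 2.36 to 2.80 FPKM in KIT+ dSPG without overlap, but its log2 change of 0.43 (interval 0.08 to 0.78, adjusted p = 0.0651) did not pass.

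The same 5 members were lower in KIT+ dSPG of Zbtb16 null mice. Gfra1 was at 35.3, 44.8 and 37.1 FPKM in null THY1+ uSPG and at 5.13, 7.30 and 5.36 FPKM in null KIT+ dSPG, a log2 change of -2.71 (SE 0.24, adjusted p = 1.08e-05). Ret was at 28.1, 38.4 and 24.2 FPKM against 3.65, 6.46 and 3.51 FPKM, a log2 change of -2.74 (SE 0.30, adjusted p = 4.12e-05). Both were separated without overlap. Etv5 fell by 1.62 (SE 0.36, adjusted p = 0.00442), Bcl6b by 2.02 (SE 0.25, adjusted p = 9.45e-05) and Lhx1 by 2.15 (SE 0.30, adjusted p = 0.000213) on the log2 scale. Among all genes tested in the null fractions, 16% fell and 13.2% rose. Gfra3 rose by 0.71 (SE 0.16, adjusted p = 0.00467), from 1.21 to 1.45 FPKM in THY1+ uSPG to 1.96 to 2.82 FPKM in KIT+ dSPG, and this call was lost without the first null KIT+ library, the highest, at 0.55.

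The fraction differences of the 2 genotypes were then compared directly by the interaction of genotype and fraction. No member passed in limma, and none had an unadjusted p under 0.05. The interaction estimates ran from -0.11 for Gfra1 (interval -0.86 to 0.64) to 0.54 for Etv5 (interval -0.59 to 1.67) on the log2 scale, so differences within these intervals were not excluded with 3 libraries a group. Of all genes tested, 0.0313% were called for the interaction, and 5014 had an unadjusted p under 0.05.

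The sorted fractions also differed in markers of other cells. The 8 macrophage markers summed to 639 to 710 FPKM in WT THY1+ uSPG and to 6.14 to 8.08 FPKM in WT KIT+ dSPG, with all 8 at a mean of at least 1 FPKM in the former and 2 of 8 in the latter. The 6 Leydig cell markers ran the other way, from 83.1 to 119 FPKM in WT THY1+ uSPG to 1215 to 2272 FPKM in WT KIT+ dSPG. The 8 Sertoli cell markers summed to 21.1 to 33.8 FPKM in the former and 38.1 to 69.5 FPKM in the latter, the 7 T cell markers to 13.3 to 14.6 FPKM and 1.996 to 2.71 FPKM. No listed marker of these cell types was at 0 as a group mean. The 6 markers shared by all germ cells overlapped, at 964 to 1109 FPKM in WT THY1+ uSPG and 916 to 1085 FPKM in WT KIT+ dSPG. The part of the somatic markers in the fraction differences of the members was not tested.

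The comparison of Zbtb16 null with WT asked which members depend on ZBTB16, a zinc finger transcription factor of undifferentiated spermatogonia. In THY1+ uSPG none of the 8 members passed the test in limma, while 3.98% of all genes tested were called. Of the members, 2 had an unadjusted p under 0.05, Lhx1 and Gfra3, both lower in the null, and 5325 of all genes did. Same-numbered null and WT libraries deviated together in both fractions. The first THY1+ pair did so most weakly, at r 0.14, against 0.16 for the first WT and the second null library. With the replicate number as a block over all 12 libraries, 1 member, Lhx1, fell in THY1+ uSPG, where 8.85% of all genes tested were called. That block also links libraries that did not deviate together, such as the first WT THY1+ and the first null KIT+ library (r -0.066). The median log2 change was -0.08 over the members and -0.03 over all genes.

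Lhx1 showed the largest difference. Its 3 null THY1+ uSPG libraries, at 1.26, 1.91 and 1.32 FPKM, all lay below the 3 WT libraries, at 3.01, 3.98 and 2.47 FPKM, and the ratio of the WT to the null mean was 2.11. Lhx1 was therefore lower in the null in 3 of 3 same-numbered pairs, which groups without overlap give under any pairing. Gfra3 was also lower, and Gfra1 higher, in 3 of 3 pairs of THY1+ uSPG. The log2 change of Lhx1 was -1.02 (SE 0.30, interval -1.68 to -0.36, adjusted p = 0.0753), and with the replicate block it was called at the same value (SE 0.14, adjusted p = 0.00276). In KIT+ dSPG, Lhx1 was at 0.246, 0.370 and 0.173 FPKM in the null and at 0.439, 0.775 and 0.333 FPKM in WT. The groups overlapped there, with a log2 change of -0.73 (SE 0.30, interval -1.39 to -0.07, adjusted p = 0.255). All 3 pairs were lower in the null there too, while those of Etv5 were all higher. With the replicate block Lhx1 was called in KIT+ dSPG (SE 0.14, adjusted p = 0.0365), where 2.29% of all genes tested were called. Averaged over both fractions, Lhx1 was the single member called, at -0.88 (SE 0.21, interval -1.34 to -0.41, adjusted p = 0.0426), where 0.746% of all genes tested fell. That call rested on most of the libraries. It was lost when any of the 3 WT THY1+ libraries, the first or the second WT KIT+, the first or the third null THY1+, or the first or the third null KIT+ library was left out, with changes from -0.96 to -0.74 and adjusted p up to 0.113 in the 9 of 12 omissions that lost it.

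Upstream sequences are shown for Lhx1 and Etv5, the GDNF-induced factors whose genotype estimates lay furthest apart in the Zbtb16 table. They come from RefSeq promoters on GRCm38.p6, which matched 3 of the 8 members (Gfra1, Etv5 and Lhx1), and are cut to the stretch outside annotated exons, chr11:84525536-84525784 for Lhx1 and chr16:22439720-22439820 for Etv5, both on the reverse strand and written 5′ to 3′. Capitals mark CCAAT on either strand (ATTGG is its reverse complement), a motif chosen after these sequences were read.
Lhx1: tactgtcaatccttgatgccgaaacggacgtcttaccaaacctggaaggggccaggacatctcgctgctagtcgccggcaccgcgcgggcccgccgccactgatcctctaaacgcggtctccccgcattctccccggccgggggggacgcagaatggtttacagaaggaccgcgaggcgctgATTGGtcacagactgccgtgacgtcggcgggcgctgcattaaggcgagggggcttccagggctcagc
Etv5: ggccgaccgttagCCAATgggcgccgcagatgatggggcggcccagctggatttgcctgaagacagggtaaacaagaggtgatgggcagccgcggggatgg
The Lhx1 match lies 68 bases before the start site and the match in the printed stretch of Etv5 237 bases before it. Beyond that stretch the same Etv5 window held CCAAT at 142 and 110 bases, and the window of a second Etv5 start site held it at 224 bases. In the 250 bases upstream of their start sites, Lhx1, Etv5 and Gfra1 each held CCAAT, which 33.8% of all 32851 promoters hold. CCGGAA, a core of ETS factors such as ETV5, was found in that of Gfra1 and in 12% of all promoters, and ACAAT, a core of SOX factors, in that of Gfra1 and in 27.7%. These matches are letters in a window and no measure of binding.

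Gfra3 was at 1.21, 1.35 and 1.45 FPKM in null THY1+ uSPG and at 1.93, 1.84 and 1.79 FPKM in WT, also without overlap. Its log2 change was -0.45 (interval -0.80 to -0.10, adjusted p = 0.126). Gfra1 was the member whose null libraries all lay above the WT ones, at 35.3 to 44.8 against 31.6 to 35.0 FPKM, with a log2 change of 0.24 (interval -0.30 to 0.77, adjusted p = 0.587). For Ret, Etv5 and Bcl6b the groups overlapped, with changes of -0.03 (interval -0.69 to 0.63), 0.04 (interval -0.76 to 0.83) and -0.03 (interval -0.58 to 0.52). Gfra2 and Pou3f1 overlapped too, at -0.13 (interval -0.86 to 0.61) and -0.22 (interval -0.83 to 0.40). Changes within these intervals were not excluded with 3 libraries a group.

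In KIT+ dSPG no member passed in limma without the block, and 1, Lhx1, had an unadjusted p under 0.05, against 0.259% called and 3863 genes at an unadjusted p under 0.05 among all genes tested. The libraries of null and WT overlapped for all 8 members. Etv5 had the largest upward estimate, at 4.07, 7.76 and 4.62 FPKM in the null against 2.0, 5.90 and 3.61 FPKM in WT, with a log2 change of 0.58 (interval -0.22 to 1.37, adjusted p = 0.425).

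Other markers moved with genotype as well. The macrophage markers summed to 298 to 560 FPKM in null THY1+ uSPG, below the WT range of 639 to 710 FPKM, and all 8 were at a mean of at least 1 FPKM in both. The peritubular and stromal cell markers summed to 236 to 370 FPKM in null and 387 to 543 FPKM in WT THY1+ uSPG, and the Leydig cell markers to 49.8 to 79.6 FPKM against 83.1 to 119 FPKM, both without overlap. The T cell markers did not overlap either, at 10.2 to 11.1 FPKM in null and 13.3 to 14.6 FPKM in WT THY1+ uSPG. The germ cell markers summed to 1105 to 1372 FPKM in null THY1+ uSPG and 964 to 1109 FPKM in WT. The 12 markers of undifferentiated spermatogonia, of which Zbtb16 is itself a member, summed to 199 to 229 FPKM in the null and 242 to 287 FPKM in WT. In KIT+ dSPG the Leydig cell markers summed to 2045 to 3122 FPKM in null and 1215 to 2272 FPKM in WT. The Sertoli cell markers summed to 62.4 to 90.6 against 38.1 to 69.5 FPKM there. Peritubular and stromal cell markers were at 242 to 462 against 153 to 286 FPKM. Germ cell markers ran the other way, at 679 to 979 against 916 to 1085 FPKM, and each of these overlapped. Differentiating spermatogonia markers did not overlap, at 197 to 221 against 258 to 281 FPKM. The part of these differences in the Lhx1, Gfra3 and Etv5 values was not tested.

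**Figure D2:**
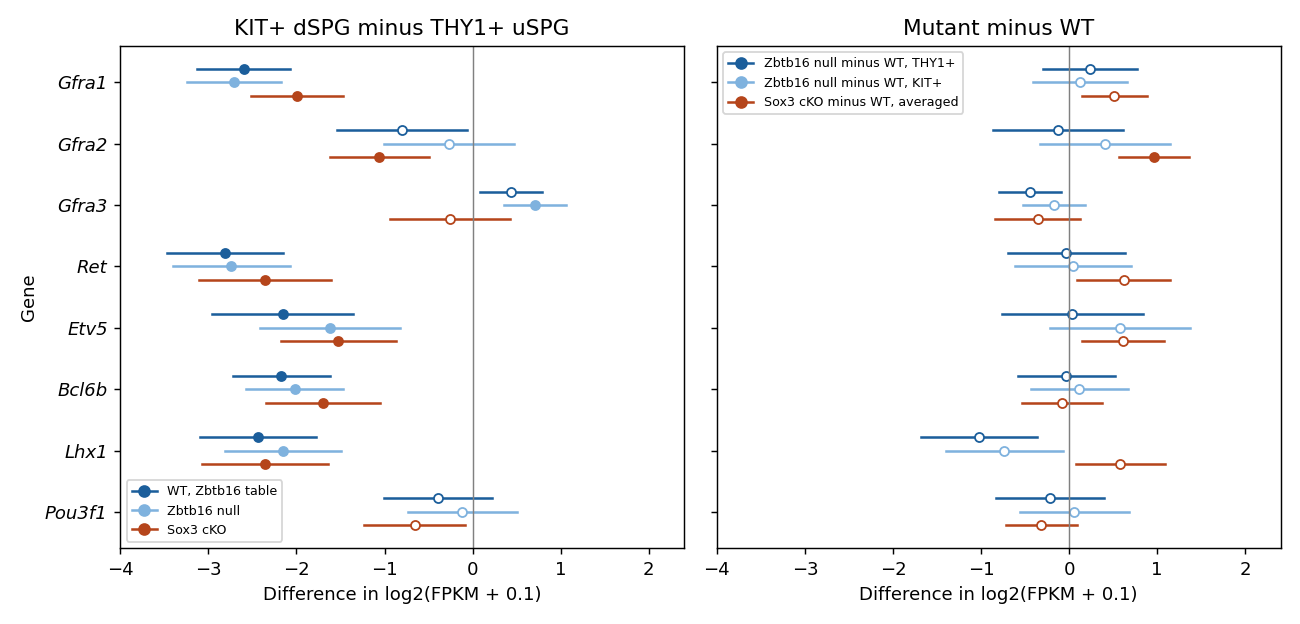
Log2 changes of the 8 members, with lines for the 95% interval and filled circles for calls (adjusted p at most 0.05 and at least 1.5-fold). The left side shows KIT+ dSPG against THY1+ uSPG in WT of the Zbtb16 table, Zbtb16 null and Sox3 cKO mice. The right side shows Zbtb16 null against WT in each fraction and Sox3 cKO against WT averaged over both fractions. In the Zbtb16 table the fraction changes of Gfra1, Ret, Etv5, Bcl6b and Lhx1 lie between -2.81 and -1.62, whereas the genotype changes of the 8 members lie between -1.02 and 0.58.

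Co-receptor and kinase were also compared within each library, since GFRA1 and RET work as a complex. The ratio of Gfra1 to Ret FPKM ran from 0.997 to 1.53 over the 12 libraries of the Zbtb16 table. It was 1.05, 0.997 and 1.24 in WT THY1+ uSPG and 1.27, 1.29 and 1.24 in WT KIT+ dSPG. In null THY1+ uSPG it was 1.26, 1.17 and 1.53, and in null KIT+ dSPG 1.41, 1.13 and 1.53. Fractions of one genotype and genotypes of one fraction overlapped in every case. The log2 ratio was 0.12 higher in KIT+ than in THY1+ libraries (exact permutation test within genotype, two-sided, p = 0.25) and 0.17 higher in null than in WT libraries (exact permutation test within fraction, two-sided, p = 0.105), where the smallest p that the 400 permutations allow is 0.005. Neither permutation test paired libraries by replicate number, although same-numbered null and WT libraries deviated together. Without the second null KIT+ library, which had the lowest ratio of its group, the genotype difference was 0.24 (exact permutation p = 0.015).

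**Figure D3:**
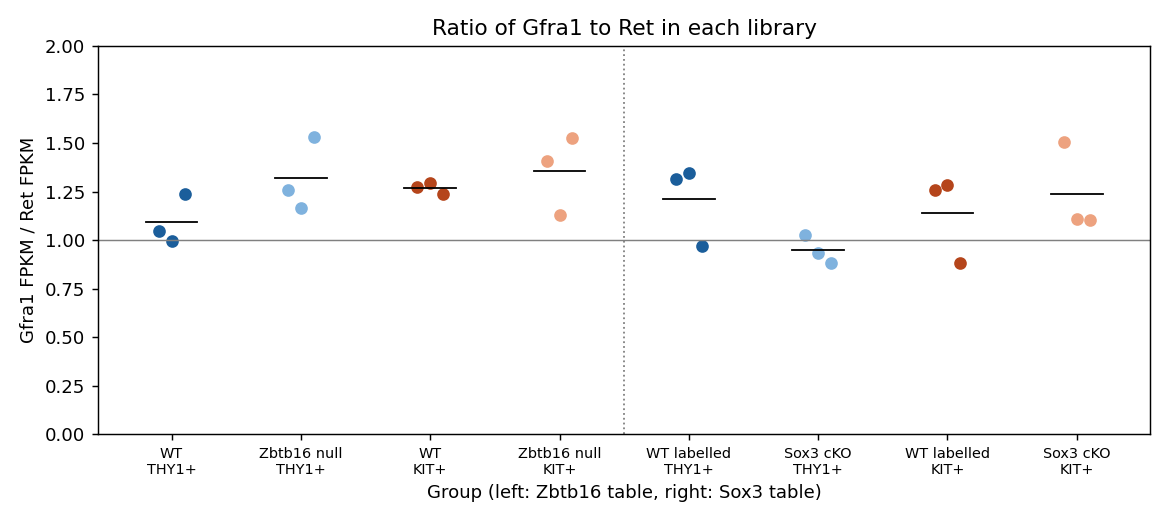
Ratio of Gfra1 to Ret FPKM in each of the 24 libraries, with a black bar at the group mean (n = 3). The ratios stay between 0.882 and 1.53 in both tables, although the FPKM of both genes differed several-fold between fractions.

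In the Sox3 table the cKO libraries, whose Thy1 and Kit followed the labels, gave a second set of sorted fractions. Of the members, 6 fell from cKO THY1+ uSPG to cKO KIT+ dSPG, the 5 of the Zbtb16 table and Gfra2, where 12.2% of all genes tested fell. Gfra1 was at 43.3, 33.5 and 43.0 FPKM in cKO THY1+ uSPG and at 10.03, 7.52 and 12.9 FPKM in cKO KIT+ dSPG, and Ret at 42.2, 35.9 and 48.7 FPKM against 6.67, 6.79 and 11.6 FPKM. The fractions did not overlap for either gene. The log2 changes were -1.99 (SE 0.24, adjusted p = 9.15e-05) for Gfra1 and -2.36 (SE 0.34, adjusted p = 0.000375) for Ret.

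Lhx1 was at 4.70, 3.08 and 5.05 FPKM in cKO THY1+ uSPG and at 0.530, 0.768 and 0.975 FPKM in cKO KIT+ dSPG, a log2 change of -2.35 (SE 0.33, adjusted p = 0.000272). Etv5 fell by 1.53 (adjusted p = 0.00276) and Bcl6b by 1.70 (adjusted p = 0.00131), from 14.1 ± 3.45 to 4.39 ± 1.58 FPKM in the case of Bcl6b. Gfra2 was at 1.14, 1.36 and 1.08 FPKM against 0.542, 0.439 and 0.586 FPKM, without overlap, a log2 change of -1.06 (SE 0.26, adjusted p = 0.00985). Pou3f1 did not pass at -0.66 (interval -1.23 to -0.09, adjusted p = 0.0778), but was called with the replicate block (SE 0.15, adjusted p = 0.00798), where 25.3% of all genes tested were called. Same-numbered cKO fractions deviated together only weakly, at r 0.11 to 0.26, against 0.11 for the third THY1+ and the second KIT+ library. Gfra3 did not pass at -0.26 (interval -0.94 to 0.42, adjusted p = 0.57). Without the block Pou3f1 passed when the second or the third WT labelled THY1+ library (-0.66 each) or the second cKO THY1+ library (-0.85) was left out.

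**Figure D4:**
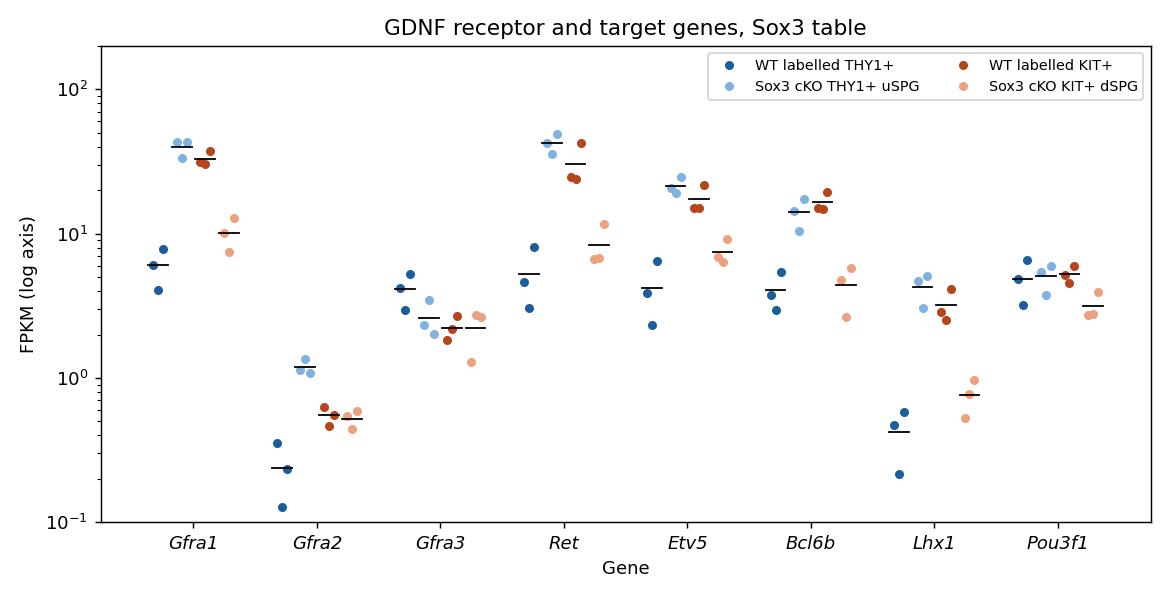
Expression of the 8 members in the Sox3 table under the deposited labels, with each library as a point, FPKM on a log axis and a black bar at the group mean (n = 3). Gfra1, Ret, Etv5, Bcl6b and Lhx1 are high in the cKO THY1+ and WT labelled KIT+ groups and low in the cKO KIT+ and WT labelled THY1+ groups.

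In the WT libraries of this table the labelled groups ran in the opposite direction. Gfra1 was at 6.10, 4.08 and 7.89 FPKM in WT labelled THY1+ and at 31.2, 30.6 and 37.5 FPKM in WT labelled KIT+, and Ret at 4.64, 3.03 and 8.13 FPKM against 24.7, 23.8 and 42.6 FPKM. As labelled, the log2 change from THY1+ to KIT+ was 2.48 (SE 0.24, adjusted p = 1.56e-05) for Gfra1 and 2.57 (SE 0.34, adjusted p = 0.000224) for Ret. Etv5, Bcl6b, Lhx1 and Gfra2 were called in the same direction, at 2.11, 2.03, 2.69 and 0.99, where 13.1% of all genes tested were called in that direction. The Gfra2 call was lost without the second WT labelled THY1+ library (0.73) or the first WT labelled KIT+ library (0.90). Gfra1, Ret, Etv5, Bcl6b and Lhx1 were higher in every library of the 2 groups with high Thy1 than in any library of the 2 groups with high Kit. Gfra2 was not, since its cKO KIT+ libraries (0.439 to 0.586 FPKM) overlapped those of WT labelled KIT+ (0.465 to 0.632 FPKM).

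The effect of losing SOX3 in germ cells was taken mainly from the average over both fractions, which has the same value whichever way the WT groups are labelled. Gfra2 was the member that passed. Its log2 change was 0.96 (SE 0.18, interval 0.56 to 1.36, adjusted p = 0.00523), where 7.49% of all genes tested rose and 2.83% fell. Its levels were 1.14, 1.36 and 1.08 FPKM in cKO THY1+ against 0.632, 0.465 and 0.555 FPKM in WT labelled KIT+, and 0.542, 0.439 and 0.586 FPKM in cKO KIT+ against 0.353, 0.127 and 0.235 FPKM in WT labelled THY1+. The cKO libraries lay above the WT libraries with like Thy1 and Kit levels in both settings, but all of these values are low.

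Gfra1 had an adjusted p of 0.0457 in the average with a log2 change of 0.51 (interval 0.14 to 0.88), short of 1.5-fold. Etv5, Ret and Lhx1 had estimates of 0.61 (interval 0.15 to 1.08, adjusted p = 0.0536), 0.62 (interval 0.09 to 1.15, adjusted p = 0.0825) and 0.58 (interval 0.08 to 1.09, adjusted p = 0.0871). Several of these changed sides with a library. Gfra1 passed without the third WT labelled THY1+ library (0.62) or the second cKO KIT+ library (0.61). Ret passed without the third WT labelled THY1+ (0.80) or the third WT labelled KIT+ library (0.75), and Etv5 without the same libraries (0.79 and 0.70). Bcl6b at -0.08 (interval -0.54 to 0.38), Gfra3 at -0.36 (interval -0.84 to 0.13) and Pou3f1 at -0.32 (interval -0.72 to 0.09) did not pass. The median was 0.55 over the members and 0.02 over all genes.

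Libraries with like Thy1 and Kit levels were also compared across the labels. Between cKO THY1+ and WT labelled KIT+, limma called no member and 0.0707% of all genes, with 1 member, Gfra2, and 2793 genes at an unadjusted p under 0.05. Gfra2 was separated there at 0.99 (interval 0.43 to 1.56, adjusted p = 0.233), Ret was at 0.52 (interval -0.23 to 1.27), and Gfra1 at 0.27 (interval -0.26 to 0.79). Between cKO KIT+ and WT labelled THY1+, 3 members rose, where 12.4% of all genes tested rose. These were Gfra2 at 0.93 (SE 0.26, adjusted p = 0.024), Etv5 at 0.90 (SE 0.30, adjusted p = 0.0473) and Gfra1 at 0.76 (SE 0.24, adjusted p = 0.0391). Their count ran from 0 to 3 when single libraries were left out. The Gfra1 call was lost in 8 of 12 such fits, at 0.51 without the second WT labelled THY1+ library. The Etv5 call was lost in 10, at 0.55 without the same library, and the Gfra2 call in 4, again at its lowest, 0.67, without it. Gfra3 lay lower without overlap, at 1.30, 2.72 and 2.63 against 4.20, 2.95 and 5.27 FPKM, with a log2 change of -0.91 (interval -1.59 to -0.22, adjusted p = 0.0543).

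Compared strictly as labelled, 6 members rose from WT to cKO in THY1+, with 17.8% of all genes tested rising, from 1.78 for Bcl6b to 3.11 for Lhx1. In KIT+, 5 members fell, with 12.6% falling, from -1.94 for Bcl6b and Lhx1 to -1.20 for Etv5. With germ cell marker scaling, 4 fell and 1, Gfra3, rose in KIT+. That scaling moved the median of all genes there from -0.05 to 0.66, so these scaled counts are not read as results about the members. The interaction of genotype and fraction, as labelled, was called for 6 members, all lower, against 20.9% of all genes tested. All of these values rest on the WT labels that Thy1 and Kit went against. The somatic markers moved with these groups in the same manner. The Leydig cell markers summed to 2493 to 4941 FPKM in cKO KIT+, 1239 to 2004 FPKM in WT labelled THY1+, 48.4 to 103 FPKM in WT labelled KIT+ and 69.1 to 106 FPKM in cKO THY1+, and the Sertoli cell markers to 93.3 to 136 FPKM in cKO KIT+ and 49.6 to 59.7 FPKM in WT labelled THY1+. The germ cell markers summed to 694 to 953 FPKM in cKO KIT+ and 1136 to 1301 FPKM in WT labelled THY1+. Their part in the values of Gfra2, Gfra1 and Etv5 was not tested. The first replicates of the Sox3 table were also the deepest, at 28.2 to 31.8 M reads against 11.03 to 14.9 M reads in the others.

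The rest of the GDNF pathway was followed with fixed lists, chosen with earlier results of these data known. Gdnf itself, the ligand, was higher in WT KIT+ dSPG (2.14 to 6.58 FPKM) than in WT THY1+ uSPG (0.436 to 0.825 FPKM), with a log2 change of 2.34 (SE 0.47, adjusted p = 0.00324), so it ran opposite to Gfra1 and Ret. Gdnf is made by Sertoli and peritubular cells. The Sertoli cell markers given above were higher in WT KIT+ dSPG, as Gdnf was, whereas the 7 peritubular and stromal cell markers ran the other way, from 387 to 543 FPKM in WT THY1+ uSPG to 153 to 286 FPKM in WT KIT+ dSPG. Their part in the Gdnf values was not tested. Of the 4 ligands, 2 rose, and none fell. Of the other receptors, 2 of 3 tested fell, among them Ncam1, a receptor that can act without RET, at -0.79 (adjusted p = 0.00373), and Sdc3, a proteoglycan that binds GDNF, at -1.80 (adjusted p = 0.0117). Of the 25 RET adaptors and kinases tested, 2 rose and 5 fell, with a median of -0.22. The shares of the adaptors and kinases are near those of all genes tested, of which 7.21% rose and 14% fell. The 4 ligands and 3 other receptors are too few for a share to be read.

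Among feedback inhibitors of the RAS-MAPK route, 5 of 7 fell from WT THY1+ uSPG to WT KIT+ dSPG and none rose, with a median of -0.81, where 14% of all genes tested fell and 7.21% rose. Spry4, a Sprouty inhibitor of receptor tyrosine kinase signalling, fell by 1.83 on the log2 scale (adjusted p = 0.00362). Of 10 other genes that respond to GDNF in cultured stem spermatogonia, 9 fell and none rose, with a median of -1.90. The largest changes were those of Id4, an inhibitor of DNA binding that marks stem spermatogonia, at -2.50 (SE 0.19, adjusted p = 3.5e-06), Nanos2, an RNA-binding protein gene, at -2.41 (SE 0.19, adjusted p = 3.82e-06), T, encoding the transcription factor brachyury, at -2.24 (SE 0.25, adjusted p = 6.88e-05), and Tspan8, a tetraspanin gene, at -2.13 (SE 0.22, adjusted p = 3.33e-05). Some genes of these lists are also expressed in macrophages, whose markers differed between the fractions, and that part was not tested.

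**Figure D5:**
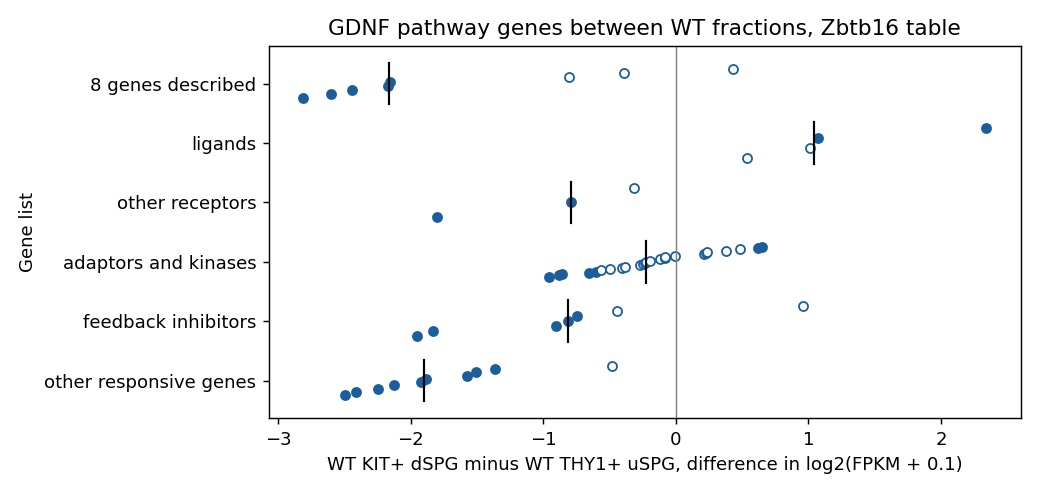
Log2 changes of the members and of the fixed lists of other GDNF pathway genes, each gene as a point, filled where called, with a black bar at the list median. From WT THY1+ uSPG to WT KIT+ dSPG the list medians are -2.16 for the members, -1.90 for other responsive genes, -0.81 for feedback inhibitors and 1.04 for ligands.

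With loss of Zbtb16, 5 of the 49 genes of these lists tested were called by limma in THY1+ uSPG, where 3.98% of all genes were, and none of the 49 in KIT+ dSPG, where 0.259% were and 10 of the 49 had an unadjusted p under 0.05. Blocking on the replicate number gave 7 calls in THY1+ uSPG, the same 5 with Egr3 (-0.84, adjusted p = 0.0224) and Gab2 (-0.69, adjusted p = 0.0175), where 8.85% of all genes were, and 3 in KIT+ dSPG, where 2.29% were. Those 3 were T at -0.93 (adjusted p = 0.0445), Id4 at 0.89 (adjusted p = 0.0406) and Spry2 at 0.85 (adjusted p = 0.0499). Without the block, T fell in THY1+ uSPG by 1.25 (SE 0.25, adjusted p = 0.0191), from 2.34 to 3.37 FPKM in WT to 0.892 to 1.52 FPKM in the null. Pik3r1, the regulatory subunit of PI3K, fell by 0.72 (SE 0.17, adjusted p = 0.0365), Ncam1 by 0.68 (SE 0.16, adjusted p = 0.0341) and Gab1, a docking adaptor, by 0.63 (SE 0.15, adjusted p = 0.0348). Dok5, an adaptor that binds RET, rose by 0.85 (SE 0.19, adjusted p = 0.0309), from 0.244 to 0.325 FPKM to 0.482 to 0.683 FPKM. Each of these calls was lost on leaving out single libraries. The T call was lost without the first (-1.11) or the second (-1.29) WT THY1+ or the first (-1.16) or the third (-1.12) null THY1+ library, and that of Dok5 without any single THY1+ library (0.76 to 0.97). Leaving out the first or the second WT THY1+, the first or the third null THY1+ or the third WT KIT+ library ended the calls of Gab1 (-0.63 to -0.56), Ncam1 and Pik3r1. For Ncam1 and Pik3r1 the third WT THY1+ library did so too, and for Pik3r1 also the third null KIT+ library, with changes of -0.72 to -0.63 for Ncam1 and -0.79 to -0.58 for Pik3r1. Id4 and Nanos2, which fell together with Lhx1 and T between fractions, had genotype estimates above 0 in THY1+ uSPG, 0.56 (interval 0.15 to 0.98, adjusted p = 0.108) and 0.42 (interval 0.02 to 0.83, adjusted p = 0.193). The macrophage, peritubular and stromal, Leydig cell and T cell markers were lower in null THY1+ uSPG, as given above. Their part in the falls of T, Pik3r1, Ncam1 and Gab1 was not tested.

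With loss of Sox3, in the average over fractions, 3 of 7 feedback inhibitors rose and all 7 had estimates above 0, with a median of 0.50, where 7.49% of all genes tested rose. Between cKO KIT+ and WT labelled THY1+, 5 of the 7 rose, with a median of 0.91, where 12.4% of all genes rose. Between cKO THY1+ and WT labelled KIT+ limma called none of the 7, with 1 at an unadjusted p under 0.05 and a median of 0.22, where 0.0707% of all genes were called. Spry1 rose by 0.75 (SE 0.11, adjusted p = 0.0026), Dusp4, a MAPK phosphatase gene, by 0.75 (SE 0.22, adjusted p = 0.0283) and Spry4 by 0.64 (SE 0.18, adjusted p = 0.0243). Of the other responsive genes, Egr3 rose by 1.11 (SE 0.18, adjusted p = 0.00337) and Egr2 by 0.64 (SE 0.20, adjusted p = 0.0379), both immediate early zinc finger factors, and Mycn fell by 0.63 (SE 0.11, adjusted p = 0.00372). The docking adaptor Gab2 rose by 0.74 (SE 0.09, adjusted p = 0.00162) and Sdc3 by 0.89 (SE 0.22, adjusted p = 0.0147). Among ligands, Gdnf rose by 0.66 (SE 0.20, adjusted p = 0.0349) and Nrtn, encoding neurturin, fell by 0.82 (SE 0.18, adjusted p = 0.00957). Without single libraries the Gdnf call was lost in 8 of 12 fits (0.47 to 0.69), that of Egr2 in 8 (0.46 to 0.69), that of Dusp4 in 6 (0.62 to 0.77), that of Spry4 in 5 (0.49 to 0.60) and that of Mycn in 3 (-0.58 to -0.56), and the second WT labelled THY1+ library gave the lowest value for Gdnf, Egr2, Dusp4 and Spry4. The somatic markers given above for the cKO KIT+ group moved with these values, and their part was not tested.

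The genes with the profile most like each member were found by the root mean square difference between profiles centred on the gene's own mean, in log2(FPKM + 0.1) over the 12 libraries of the Zbtb16 table. This is a description, and libraries of one fraction share their sort. Among members Gfra1 and Ret were each other's nearest, at 0.18, while Etv5 and Bcl6b were at 0.25. Tcl1, which encodes a co-activator of AKT kinase, was nearest to Gfra1 at 0.11, and at 0.23 in the Sox3 table. For Etv5 the nearest gene was Spry4 at 0.19 and 0.20. For Bcl6b it was Amot, encoding angiomotin, at 0.14 and 0.30, followed by Fst and Il17rd, and for Ret it was Gm16277 at 0.20, followed by Nefm and Tcl1.

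Lhx1 stood further from the other members, with Bcl6b its nearest at 0.53. Its nearest gene was T at 0.27, followed by Cbln2 and Foxc2 at 0.29 each. In the Sox3 table the difference between Lhx1 and T was 0.56. Gfra3 was nearest to Metrn at 0.14 and 0.67 in the respective tables, and Pou3f1 to Evl at 0.13 and 0.40. Both members vary little in the Zbtb16 table, so flat genes lie close to them.

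On the mouse assembly GRCm38 (GENCODE vM21), Gfra1 (ENSMUSG00000025089) lies on the reverse strand at chr19:58235604-58455909, Ret (ENSMUSG00000030110) at chr6:118151745-118197718, Etv5 (ENSMUSG00000013089) at chr16:22381309-22439719, Bcl6b (ENSMUSG00000000317) at chr11:70224128-70229798 and Lhx1 (ENSMUSG00000018698) at chr11:84518284-84525535, all on that strand too. Gfra3 (ENSMUSG00000024366) is on a reverse strand, and Gfra2 (ENSMUSG00000022103, chr14:70890120-70979838) and Pou3f1 (ENSMUSG00000090125, chr4:124656807-124660655) are on forward strands. All 8 are protein coding. Gm16277, the neighbour of Gfra1 and Ret in the profile comparison, lies on the forward strand at chr19:58204139-58236047 and shares 444 bases with Gfra1. Gm2164 shares 363 bases with Pou3f1 on the opposite strand. The libraries were stranded, but whether the counting used strand is not given in the sources used here, so reads from the shared bases cannot be assigned.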

How the data were processed

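RNA-seq was deposited as 2 tables of FPKM, 1 for the Zbtb16 and 1 for the Sox3 experiment. Per the labels and methods, the authors made stranded, rRNA-depleted libraries and aligned reads to mm10 with Novoalign. Their tests used DESeq2, and those columns hold fold changes and p-values that were not used. Deposited FPKM values are already scaled for length and depth, so shifts in the sum of abundant RNAs move every gene. The 10 genes with the highest FPKM held 36.2 to 49.7% of the summed FPKM of a library in the Zbtb16 table. In the Sox3 table they held 31.4 to 51.4%. Groups follow the sample labels. Each table was fitted separately with limma 3.58.1 in R 4.3.3 on log2(FPKM + 0.1), genes with mean FPKM of at least 0.1, 4 group means over 12 libraries, eBayes with trend and robust, two-sided. The fit was tested on simulated data. Reads per library were estimated from whole-read steps with a tolerance of 0.02. The study calls the replicates independent biological replicates, each isolation pooling 3 mice, so p-values measure the spread between isolations. Replicate numbers mark nothing shared in the labels. In the data, deviations of same-numbered libraries from their group means correlated above 0.1 in every pair (r 0.14 to 0.59 for null and WT THY1+, 0.46 to 0.64 for null and WT KIT+, 0.37 to 0.63 for null fractions, 0.11 to 0.26 for cKO fractions, 0.11 to 0.43 for WT fractions of the Sox3 table, 0.14 to 0.30 for cKO THY1+ and WT labelled KIT+), and these comparisons are also given with a replicate block where it changes a call. In the other comparisons at least 1 pair was lower (lowest -0.184). The block was fitted over all 12 libraries of a table, so every block result also rests on such pairs. Figures used Python 3.11.15 and matplotlib 3.10.9. Named genes were the 8 members, sorting markers, targeted genes, pathway genes called in a genotype comparison, the 5 largest calls of the WT fractions and the 3 nearest profiles per member with a mean of at least 1 FPKM. The marker Adgre1 was matched by its identifier. The members and lists were chosen with earlier results of these data known. Alternatives changed the pseudocount, filter, scaling, spread estimate, libraries and replicate block.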

Additional observations from a re-analysis of the deposited data

Results flagged for a closer look

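In the Sox3 table the change from THY1+ to KIT+, as labelled, differed between cKO and WT for 6 members by the interaction term in limma, where 20.9% of all genes tested were called in the same direction. The difference of the log2 changes (cKO minus WT) was -4.47 (SE 0.34, adjusted p = 1.05e-06) for Gfra1, -2.05 (SE 0.37, adjusted p = 0.000899) for Gfra2, -4.93 (SE 0.48, adjusted p = 1.01e-05) for Ret, -3.63 (SE 0.42, adjusted p = 3.75e-05) for Etv5, -3.73 (SE 0.42, adjusted p = 2.88e-05) for Bcl6b and -5.05 (SE 0.46, adjusted p = 5.33e-06) for Lhx1. Thy1 and Kit went against the labels of the WT libraries in this comparison. With the WT groups exchanged, an alternative added after seeing the data, limma called no member and 0 of 21212 genes, with 1 member, Gfra3, and 2709 genes at an unadjusted p under 0.05. Estimates of the 8 members then ran from -1.10 for Gfra3 (interval -2.06 to -0.13, adjusted p = 0.335) to 0.58 for Etv5 (SE 0.42, adjusted p = 0.59).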

How the results depend on the processing

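The fraction calls of Gfra1, Ret, Bcl6b and Lhx1 kept their direction and passed under every alternative run in both tables, and those of Etv5 were lost in the null fractions under germ cell marker scaling (-0.95) and in the cKO fractions with replicates 2 and 3 alone (-1.50). The genotype counts moved more. In THY1+ uSPG of the Zbtb16 table the count of members called was 0, and it became 1 with a pseudocount of 1, 1 with the replicate block, 2 with germ cell marker scaling and 2 with both. In KIT+ dSPG it went from 0 to 1 with the block and to 1 with block and scaling, Lhx1 in each fraction among them. For the Zbtb16 interaction it went from 0 to 1 with the scaling and to 5 with block and scaling. In the average over fractions it went from 1 to 0 with a pseudocount of 1 or 0.01 or a filter at a mean of 1 FPKM, and ranged from 0 to 1 without single libraries. In the Sox3 average it was 1, and 0 with a pseudocount of 1, 3 with the block, 2 with median scaling, 5 with germ cell marker scaling, 5 with block and scaling and 1 to 4 without single libraries. Between cKO KIT+ and WT labelled THY1+ it was 3, and 6 with the block, 5 with germ cell marker scaling, 6 with both, 1 without trend and robust, 0 with the libraries compared alone, 0 with replicates 2 and 3 alone and 0 to 3 without single libraries. Between cKO KIT+ and WT labelled KIT+, Gfra3 reversed from -0.07 to 0.64 under germ cell marker scaling, with or without the block. That scaling moved the median of all genes in this comparison from -0.05 to 0.66, so the reversal is not particular to Gfra3. The genotype difference of the log2 Gfra1 to Ret ratio ranged from 0.12 to 0.24 without single libraries and passed at its highest. Germ cell marker scaling, which sets the 6 germ cell markers level, shifted the median of all genes by -0.29 in the THY1+ and 0.18 in the KIT+ comparison of the Zbtb16 table, by 0.65 between null fractions and by 0.39 in the Sox3 average. Over the alternatives, the all-gene count ranged from 468 to 4547 (890 as reported) in the THY1+, from 2 to 1935 (58) in the KIT+ and from 597 to 6248 (2188) in the Sox3 average comparison. It ranged from 2 to 7147 (7) for the Zbtb16 interaction and from 157 to 717 (514) for the Zbtb16 average. Between cKO KIT+ and WT labelled THY1+ it ranged from 987 to 8868 (3608). Changes of the member counts are therefore not read as results about the members. Of 2745 alternative values of single genes, 2532 kept their call. The causes were not tested.

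In the 6 comparisons whose same-numbered libraries all correlated above 0.1, the replicate block changed the calls of Lhx1 and Pou3f1 given above and of no other member. Some pairs with unlike numbers passed that cut too. The first WT labelled THY1+ and the second WT labelled KIT+ library were at r 0.22, and the third cKO THY1+ and the second cKO KIT+ library at r 0.11. The pairing by number is thus weak in the Sox3 table. In all, 16 of 18 same-numbered pairs of the Zbtb16 table (mean r 0.40) and 14 of 18 of the Sox3 table (mean r 0.17) were over 0.1. Deviations within a group of 3 sum to 0, which pushes the mean of the other pairs below 0 (-0.20 and -0.08). Those means are therefore no separate evidence of pairing. In the Zbtb16 interaction, where the numbers did not pair every group, the block raised the all-gene count from 7 to 2756 and called no member, and between cKO THY1+ and WT labelled KIT+ it raised it from 15 to 29. The fits with replicates 2 and 3 alone, the block combined with scaling and the Sox3 interactions were chosen after seeing the data. Depth limited Gfra2 and Lhx1 most.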
